A study of Mus musculus with 15 samples.

Results

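DNA mismatch repair and nucleotide excision repair were followed through 8 genes in mouse embryonic fibroblasts: Msh3, Msh6 and Pms2 for mismatch repair, and Xpc, Ddb2, Xpa, Ercc1 and Ercc4 for nucleotide excision repair. They were taken by symbol from a table of 54495 genes, each matched 1 row, and all 8 passed the filter on low values that left 13562 genes for testing. Mismatch repair removes bases misplaced in replication: a sensor that holds Msh6 finds mispairs and small loops, one that holds Msh3 finds larger loops, and Pms2 then nicks the strand to be removed. Nucleotide excision repair cuts out bulky lesions such as ultraviolet photoproducts. Xpc, helped by Ddb2, finds the distortion, Xpa verifies it, the Ercc1-Ercc4 nuclease (Ercc4 is also called Xpf) cuts on the 5′ side and Ercc5 (Xpg) on the 3′ side, and the gap is filled and ligated. XPC and DDB2 are known p53 targets in human cells, and the p53 response of Ddb2 has been reported to be lacking in mouse cells.

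PolyA RNA was sequenced from fibroblasts of embryos taken at day 13.5 and grown in low oxygen (3% O2, with 5% CO2) in DMEM and 10% serum. Every group lacked mTR (Terc, the telomerase RNA) and Wrn, the helicase lost in Werner syndrome, with the genotype written mTR-/-Wrn-/-. TM fibroblasts carried p53N236S/N236S, a p53 change on both alleles, and DM fibroblasts carried p53WT. Telomerase-deficient mice are bred in successive generations, of which G1, G3 and G5 were sampled: 2 libraries of G1TM against 2 of G1DM, 3 of G3TM against 2 of G3DM, and 3 of G5TM against 3 of G5DM. The study asked how the p53 change rescues ageing phenotypes of a Werner syndrome model; wild-type and p53-mutant control fibroblasts are not analysed here. Nothing in the labels says that libraries of a group came from separate embryos or cultures, so p-values measure the spread between these libraries, which may be technical. In bulk RNA, fewer cells expressing a gene and less RNA per cell cannot be told apart.

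Levels are FPKM (fragments per kilobase of gene, scaled by the authors for library size), and differences are on the log2(FPKM + 1) scale, TM minus DM or later minus earlier generation, with the standard error (SE). A gene was called changed where the limma p-value, adjusted by the Benjamini-Hochberg method over all 13562 genes, was under 0.05. Read numbers recovered from the table totalled 17448588 to 29571111 per library. The library size implied by the FPKM scaling was 0.807 to 1.04 times this total in G3TM and G5TM libraries. In libraries of the 4 other groups it was 0.929 to 1.11 times the total. The part of this scaling in the results below was not tested. Wrn lay at 0.0447 to 0.599 FPKM and Terc at 0 to 0.109 FPKM in the 15 libraries, both below the filter, and Trp53 at 42.0 to 96.6 FPKM in TM and 32.2 to 57.1 FPKM in DM. The 5 genes used to check p53 function (Cdkn1a, Mdm2, Ccng1, Ephx1, Eda2r) summed to 32.6 to 51.8 FPKM in TM libraries and 418 to 676 FPKM in DM libraries. All 6 G3TM and G5TM libraries differed from the remaining 9 in transcripts unrelated to repair: mt-Rnr2 was 44.7 to 73.6 FPKM in the 6 and 1.48 to 3.76 FPKM in the 9, and Rpl12 was 300.4 to 610 FPKM in the 6 and 3.84 to 6.77 FPKM in the 9. Comparisons of G3TM or G5TM with any of the 4 other groups span that division, and in them genotype or generation and the division cannot be told apart; the 5 comparisons that do not span it are TM against DM in G1, the 3 pairs of generations in DM, and G5 against G3 in TM. The 9 fibroblast markers summed to 3082 to 6216 FPKM in every library, while the 4 neural markers summed to 79.0 to 243 FPKM in the 6 libraries and 13.7 to 41.6 FPKM in the 9, of which Tubb3 gave 77.1 to 241 FPKM in the 6 and 12.8 to 40.8 FPKM in the 9. The neural marker Dcx was at most 0.0612 FPKM in any library, and the 5 skeletal muscle markers, none of them at 0, summed to 4.67 to 185 FPKM in the 6 and 1.38 to 5.85 FPKM in the 9. The 5 macrophage markers summed to 2.53 to 56.3 FPKM in G3TM and 3.99 to 4.13 FPKM in G3DM. The 4 endothelial markers summed to at most 1.67 FPKM in TM and at most 4.37 FPKM in DM. The part of these markers in the results below was not tested.

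The start regions of Msh6 and Pms2 are shown because these genes varied together over the libraries. RefSeq promoter windows (GRCm38.p6, 250 bases before to 50 bases after the start) were found for 6 of the 8 genes; Xpc and Ddb2 are named only. Capitals mark TTTNNCGC, a core of E2F sites, or CCAAT, the NF-Y box, on either strand. The Msh6 stretch (chr17:87974950-87975073, plus strand) runs across the start of the gene. The Pms2 stretch (chr5:143909848-143909963, plus strand) is the gap between Aimp2 and Pms2, which are transcribed away from each other. A further CCAAT match of the Pms2 window, at -33 to -29 from the RefSeq start, lies outside this stretch.
Msh6: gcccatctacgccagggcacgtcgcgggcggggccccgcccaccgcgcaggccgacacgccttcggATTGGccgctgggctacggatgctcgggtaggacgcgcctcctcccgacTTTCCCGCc
Pms2: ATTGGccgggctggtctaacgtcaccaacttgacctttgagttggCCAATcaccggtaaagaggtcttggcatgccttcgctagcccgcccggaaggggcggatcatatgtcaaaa
TTTNNCGC was present in 2 of the 6 windows (Msh3 and Msh6) and in 5.17% of all 32851 windows of 300 bases. CCAAT was present in 4 of the 6 (Msh6, Pms2, Xpa and Ercc4) and in 37.4% of all windows. TTTGAA, the core of the CHR element bound by DREAM and MMB complexes, was in 0 of the 6 and 17.9% of all windows, and the p53 half-site was in 0 of the 6 and 8.36%. These matches describe letters in a window, not sites in use.

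By level per length, Msh6 and Ercc1 were the most abundant, with medians over the 15 libraries of 15.0 FPKM (range 10.2 to 18.8) and 12.6 FPKM (6.72 to 23.0), and their ranges overlapped each other but those of no other member. Xpa (median 3.97 FPKM, 2.08 to 5.63), Ercc4 (3.59 FPKM, 2.90 to 4.88) and Xpc (2.85 FPKM, 2.38 to 4.29) followed, with overlapping ranges. Pms2 (1.72 FPKM, 1.27 to 2.41) overlapped Xpa and Xpc above it and Msh3 (0.702 FPKM, 0.326 to 1.57) and Ddb2 (0.610 FPKM, 0.217 to 1.51) below it. Ercc4 varied least between libraries, with a highest value 1.68 times the lowest, and Ddb2 varied most, at 6.98 times, on 9 to 97 reads per library.

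**Figure D1:**
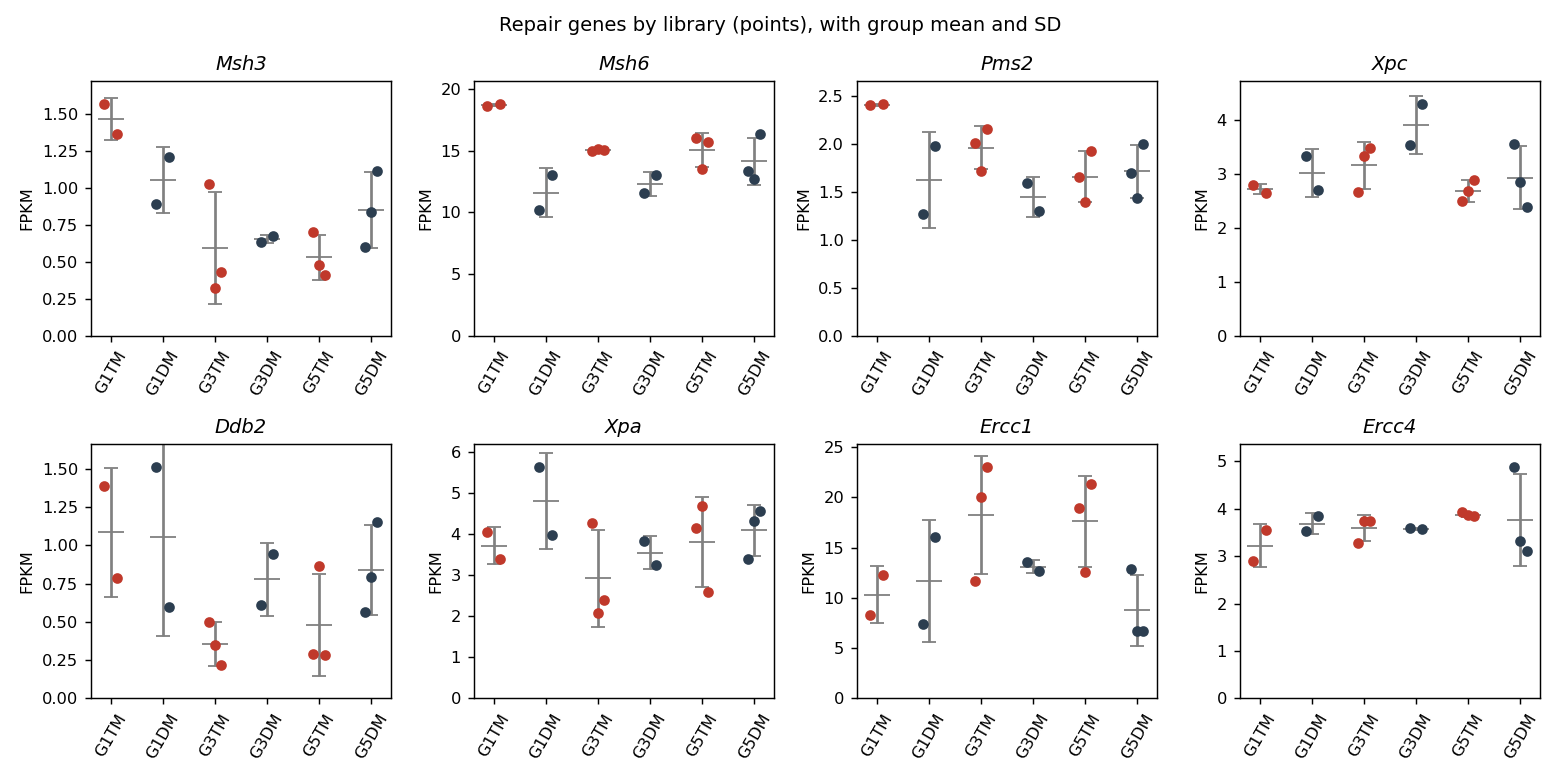
FPKM (linear axis from 0) of the 8 repair genes in each library, one point per library, TM in red and DM in dark blue, with the group mean and SD in grey. Msh6 in G1TM (18.7 and 18.8 FPKM) lies above every other library, Ercc4 stays between 2.90 and 4.88 FPKM, and Msh3 and Ddb2 are lowest in libraries of G3TM and G5TM.

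Across 12 comparisons of the 8 genes, 96 tests in all, 4 were called, in 3 genes, where 22.5% of the same tests over all genes were called. Msh6 was higher in TM than in DM as the mean of the 3 generations, and Ercc1 was higher in TM in G5. Msh3 was lower in G3TM and in G5TM, each against G1TM. All 4 calls lie in comparisons that span the division between libraries. In the 5 comparisons that do not, 0 of 40 tests were called by limma or with voom weights (1.29% over all genes by limma), and 1 had an unadjusted p under 0.05 by limma, that of Msh6 in G1.

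Msh6, a subunit of the main mispair sensor, had the clearest difference between genotypes. In G1 it had 18.7 and 18.8 FPKM in TM libraries, against 10.2 and 13.0 FPKM in DM libraries. In G3 it had 15.0, 15.2 and 15.1 FPKM in TM, against 11.6 and 13.0 FPKM in DM. In G5 it had 16.0, 13.5 and 15.7 FPKM in TM, against 13.3, 12.7 and 16.3 FPKM in DM. All TM libraries were above all DM libraries in G1 and in G3, and the groups overlapped in G5. By group mean the order was G1TM (18.7 ± 0.0891 FPKM, SD, n = 2), then G3TM (15.1 ± 0.0870, n = 3) and G5TM (15.1 ± 1.36, n = 3), which did not differ beyond their spread, then G5DM (14.1 ± 1.94, n = 3), G3DM (12.3 ± 1.00, n = 2) and G1DM (11.6 ± 2.01, n = 2), whose ranges overlapped. The mean difference was 0.34 (SE 0.10, adjusted p = 0.00958, limma; 54.1% of all genes tested were called in this comparison), and it was 0.65 in G1 (SE 0.18, adjusted p = 0.108), 0.28 in G3 (SE 0.17, adjusted p = 0.223) and 0.09 in G5 (SE 0.15, adjusted p = 0.620). The mean difference remained called when any 1 library was left out (0.29 to 0.39) and was not called after quantile normalization (0.19, adjusted p = 0.127). Within TM, G3 against G1 gave -0.29 (95% interval -0.65 to 0.07, adjusted p = 0.158) and G5 against G1 gave -0.30 (-0.66 to 0.06, adjusted p = 0.149); after quantile normalization these were -0.58 (adjusted p = 0.0181) and -0.59 (adjusted p = 0.0161), both called.

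Pms2, the endonuclease subunit that nicks the strand, also had its highest values in G1TM but was not called. In G1 it had 2.40 and 2.41 FPKM in TM, against 1.27 and 1.98 FPKM in DM. In G3 it had 2.00, 1.72 and 2.16 FPKM in TM, against 1.59 and 1.30 FPKM in DM. In G5 it had 1.65, 1.39 and 1.92 FPKM in TM, against 1.70, 1.44 and 2.00 FPKM in DM. TM was above DM without overlap in G1 and G3, and the groups overlapped in G5. The mean difference was 0.21 (95% interval -0.00236 to 0.43, adjusted p = 0.0861, limma); it was called after quantile normalization (0.33, adjusted p = 0.0162) and without G1DM replicate 2 (0.28, adjusted p = 0.0410).

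Msh3, which recognises larger loops, was called lower in G3TM and in G5TM than in G1TM, and was not called between G3TM and G5TM. In TM it had 1.57 and 1.37 FPKM in G1, 1.03, 0.326 and 0.433 FPKM in G3, and 0.702, 0.480 and 0.413 FPKM in G5. In DM it had 0.894 and 1.21 FPKM in G1, 0.635 and 0.676 FPKM in G3, and 0.601, 0.841 and 1.12 FPKM in G5. Every G3TM and G5TM library was below both G1TM libraries, TM was above DM without overlap in G1, and TM and DM overlapped in G3 and G5. Within TM the difference was -0.65 for G3 against G1 (SE 0.21, adjusted p = 0.0206, limma; 46.8% of genes tested were called) and -0.69 for G5 against G1 (SE 0.21, adjusted p = 0.0147; 49.5% called). The size of these falls of a low gene depended on the scale. They were larger with a pseudocount of 0.1, at -1.30 and -1.34 (adjusted p = 0.0241 and 0.0203). With voom weights on the recovered reads they were -1.38 and -1.49 (adjusted p = 0.0123 and 0.00764). After quantile normalization they were smaller, at -0.48 and -0.56 (adjusted p = 0.0437 and 0.0218), and both remained called. The call in G3 was lost without G1TM replicate 1 (adjusted p = 0.141), G1TM replicate 2 (0.0648), G3TM replicate 2 (0.0797) or G3TM replicate 3 (0.0690), and with no filter on low values (0.0518). The call in G5 was lost without G1TM replicate 1 (adjusted p = 0.110) or G1TM replicate 2 (0.0512). Both comparisons span the division between libraries, and Msh3 rested on 54 to 457 reads per library. TM against DM gave 0.27 in G1 (95% interval -0.22 to 0.75), -0.08 in G3 (-0.52 to 0.37), -0.27 in G5 (-0.67 to 0.13) and -0.03 as the mean (-0.28 to 0.23), so the signs in G1 and G5 were opposite. The interaction test of G5 against G1 gave -0.54 (-1.17 to 0.09, adjusted p = 0.184).

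The ratio of Msh6 to Msh3 sets the main mispair sensor against the loop sensor. It was 12.8 ± 1.31 in G1TM and 11.1 ± 0.449 in G1DM (SD, n = 2 each). In G3 it was 32.0 ± 16.2 in TM (n = 3) and 18.8 ± 0.687 in DM (n = 2), and in G5 it was 29.7 ± 7.75 in TM and 17.3 ± 4.23 in DM (n = 3 each). In G3 the TM libraries ran from 14.6 to 46.6 around the DM values, whereas in G5 all TM libraries (22.8 to 38.1) were above all DM libraries (14.6 to 22.2). The ratio was not tested, and in G5 the TM and DM libraries did not overlap for 58.0% of single genes.

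**Figure D2:**
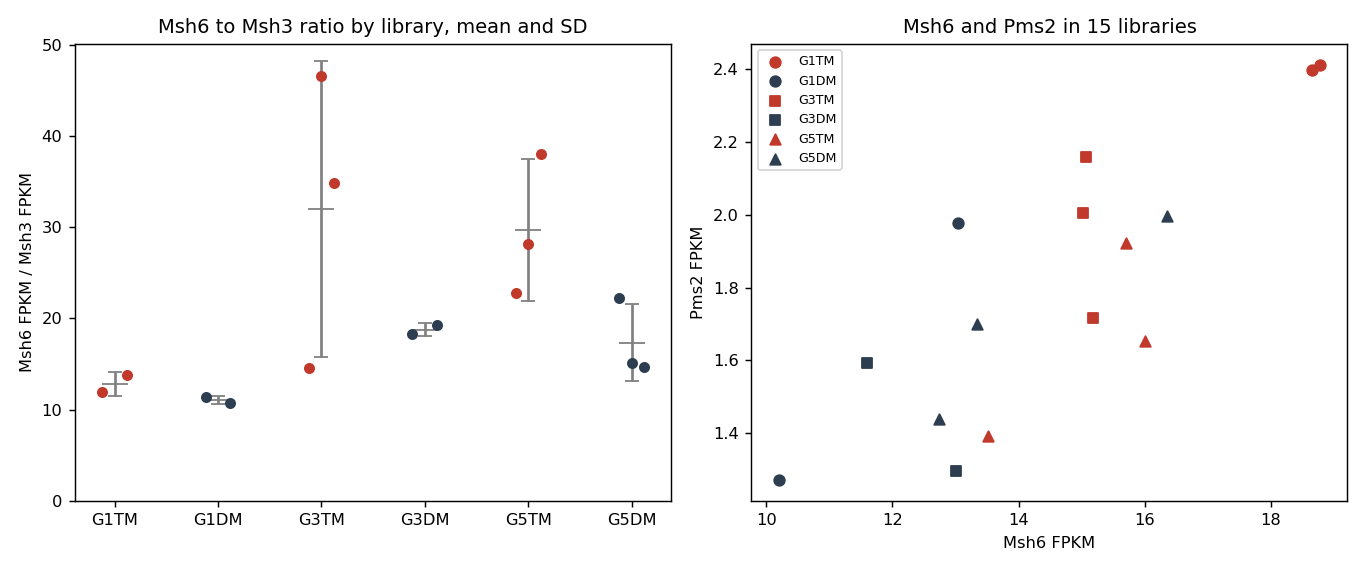
Left, the ratio of Msh6 FPKM to Msh3 FPKM in each library (points; grey, group mean and SD), TM in red and DM in dark blue; right, Pms2 FPKM against Msh6 FPKM with the generation given by the marker. The ratio is 10.8 to 13.7 in the 4 G1 libraries and reaches 46.6 in G3TM, and both G1TM libraries lie at the top right of the plot of Pms2 against Msh6.

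Xpc, the damage sensor of global repair and a known p53 target in human cells, was not called in any comparison. In G1 it had 2.79 and 2.65 FPKM in TM, against 3.33 and 2.70 FPKM in DM. In G3 it had 2.66, 3.33 and 3.48 FPKM in TM, against 3.53 and 4.29 FPKM in DM. In G5 it had 2.49, 2.68 and 2.89 FPKM in TM, against 3.55, 2.85 and 2.38 FPKM in DM. TM was below DM without overlap in G3, where the nearest libraries had 3.48 FPKM in TM and 3.53 FPKM in DM, and the groups overlapped in G1 and G5. The mean difference was -0.14 (95% interval -0.35 to 0.07, adjusted p = 0.226, limma), while Cdkn1a, the p53 target that encodes the p21 cell cycle inhibitor, gave -3.83 (SE 0.28, adjusted p = 9.15e-07). Mdm2, the ligase gene that keeps p53 low, gave -2.20 (SE 0.24, adjusted p = 1.38e-05).

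Ddb2, which binds ultraviolet photoproducts and recruits Xpc, was not called either, on few reads. In G1 it had 1.38 and 0.787 FPKM in TM, against 1.51 and 0.597 FPKM in DM. In G3 it had 0.500, 0.348 and 0.217 FPKM in TM, against 0.610 and 0.946 FPKM in DM. In G5 it had 0.291, 0.866 and 0.283 FPKM in TM, against 0.567, 0.793 and 1.15 FPKM in DM. TM was below DM without overlap in G3, and the groups overlapped in G1 and G5. The differences were 0.04 in G1 (95% interval -0.55 to 0.63), -0.39 in G3 (-0.93 to 0.15), -0.32 in G5 (-0.81 to 0.16) and -0.22 as the mean (-0.53 to 0.09, adjusted p = 0.203, limma). Within TM, G3 against G1 gave -0.61 (95% interval -1.15 to -0.07, adjusted p = 0.0586); it was called with a pseudocount of 0.1 (-1.38, adjusted p = 0.0470), with voom weights on the recovered reads (-1.53, adjusted p = 0.0408), with only the groups compared (adjusted p = 0.0353), and without G1DM replicate 1 (0.0453), G1DM replicate 2 (0.0451), G5DM replicate 1 (0.0435) or G5TM replicate 2 (0.0484). G5 against G1 in TM gave -0.50 (95% interval -1.04 to 0.04, adjusted p = 0.109) and was called without G5TM replicate 2 (-0.68, adjusted p = 0.0455). A log2(FPKM + 1) difference understates the change of a gene at this level. Over the 21 alternatives, TM against DM ran from -1.105 to -0.25 in G3, from -0.95 to -0.063 in G5 and from -0.65 to -0.071 as the mean, with 0 called.

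Xpa, which verifies the lesion and places the nucleases, had 2.08 to 4.68 FPKM in the 8 TM libraries and 3.25 to 5.63 FPKM in the 7 DM libraries. In G3TM it split into 1 library at 4.28 FPKM and 2 at 2.08 and 2.40 FPKM, on both sides of the G3DM libraries at 3.83 and 3.25 FPKM. TM and DM overlapped in all 3 generations, and the mean difference was -0.21 (95% interval -0.53 to 0.10, adjusted p = 0.229, limma).

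Of the 2 subunits of the 5′ nuclease, Ercc1 was called in 1 comparison and Ercc4 in 0, and the difference between them was not tested. Ercc1, the subunit that binds DNA and Xpa, had 8.30 and 12.3 FPKM in G1TM, against 7.40 and 16.0 FPKM in G1DM. It had 11.7, 20.1 and 23.0 FPKM in G3TM, against 13.5 and 12.6 FPKM in G3DM. It had 18.9, 12.6 and 21.4 FPKM in G5TM, against 12.8, 6.75 and 6.72 FPKM in G5DM. TM and DM overlapped in every generation, in G5 by 1 library on each side (12.6 FPKM in TM and 12.8 FPKM in DM). Ercc1 rose in G5TM by 0.96 against G5DM (SE 0.33, adjusted p = 0.0242, limma; 58.7% of genes tested were called), and the mean difference was 0.42 (95% interval -0.04 to 0.88, adjusted p = 0.112). In the same G5 libraries the 4 cartilage markers summed to 105 to 261 FPKM in TM and at most 47.6 FPKM in DM. The 4 epithelial markers summed to 19.1 to 49.6 FPKM in TM and 3.69 to 5.21 FPKM in DM. Nearly all of the epithelial sum was Krt8 and Krt18, since Epcam was at most 0.233 FPKM and Cdh1 at most 0.195 FPKM in these libraries. The part of the cartilage and epithelial markers in the Ercc1 difference was not tested. The G5 call was lost without G5DM replicate 2 (adjusted p = 0.0902), G5DM replicate 3 (0.0872), G5TM replicate 1 (0.0717) or G5TM replicate 3 (0.0882), and with no filter on low values (0.0625). The mean was called without G1DM replicate 2 (0.59, adjusted p = 0.0367), G3TM replicate 1 (0.51, adjusted p = 0.0462) or G5DM replicate 1 (0.51, adjusted p = 0.0386), and was lower without G1DM replicate 1 (0.25, adjusted p = 0.345) and after quantile normalization (0.26, adjusted p = 0.278). Within TM, G3 against G1 gave 0.74 (95% interval -0.06 to 1.53, adjusted p = 0.112), called without G3TM replicate 1 (1.02, adjusted p = 0.0355). Ercc4, the catalytic subunit, had 2.90 to 3.92 FPKM in TM and 3.11 to 4.88 FPKM in DM, with a mean difference of -0.03 (95% interval -0.24 to 0.18, adjusted p = 0.793). The ratio of Ercc1 to Ercc4 was 4.55 ± 1.18 in G5TM and 2.28 ± 0.314 in G5DM (SD, n = 3 each), with all TM libraries (3.25 to 5.56) above all DM libraries (2.03 to 2.63). This ratio was not tested, and 58.0% of single genes had TM and DM libraries that did not overlap in G5.

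TM against DM by generation gave 0 of 8 genes called in G1, where 1.17% of all genes tested were called, 0 of 8 in G3 (32.0%; 0 with an unadjusted p under 0.05) and 1 of 8 in G5 (58.7%). The median difference of the 8 genes was -0.03 in G1, -0.04 in G3, -0.06 in G5 and -0.03 as the mean, beside 0.02, 0.01, 0.02 and -0.00432 over all genes tested. TM and DM libraries did not overlap for 3 of the 8 in G1 (Msh3, Msh6 and Pms2, all higher in TM; 49.4% of all genes did not overlap, 26.4% with TM higher), 4 of 8 in G3 (Msh6 and Pms2 higher, Xpc and Ddb2 lower; 59.8% of all genes, 31.6% with TM higher and 28.2% with TM lower) and 0 of 8 in G5 (58.0%). Over all 3 generations, 0 of 8 had all TM libraries on one side of all DM libraries, against 7.68% of genes.

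**Figure D3:**
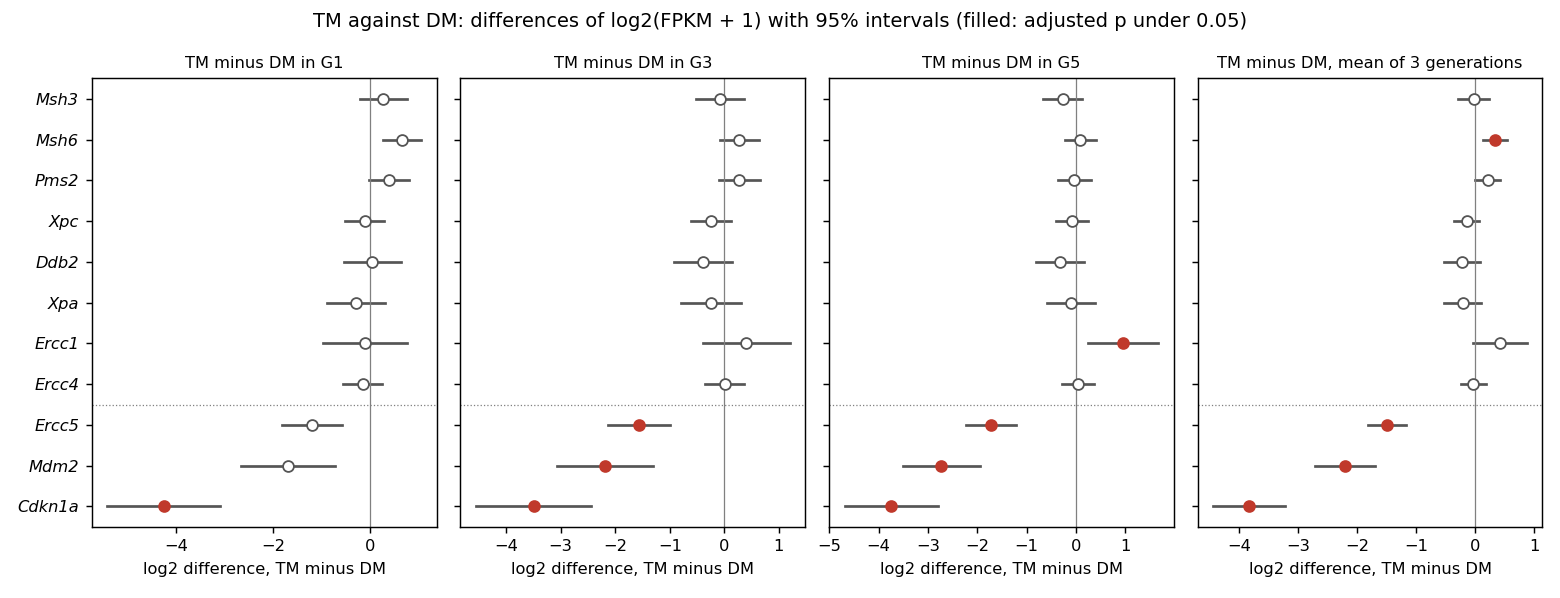
TM minus DM difference in log2(FPKM + 1) with its 95% interval in G1, G3, G5 and as the mean of the 3 generations, for the 8 repair genes above the dotted line and for Ercc5, Mdm2 and Cdkn1a below it; filled points had an adjusted p under 0.05. The 8 genes lie between -0.39 and 0.96, and Ercc5 lies between -1.20 and -1.72.

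Between generations of DM, which kept wild-type p53, 0 of 8 genes were called by limma for G3 against G1 (0.214% of all genes were called), G5 against G1 (0.059%) or G5 against G3 (4.98%), 0 had an unadjusted p under 0.05, and 0 were called with voom weights. The differences ran from -0.34 (Xpa) to 0.29 (Xpc) for G3 against G1, from -0.35 (Ercc1) to 0.26 (Msh6) for G5 against G1, and from -0.58 (Ercc1) to 0.18 (Msh6) for G5 against G3. Their intervals were wide: that of Ercc1 for G5 against G3 was -1.38 to 0.21, and that of Msh6 for G5 against G1 was -0.09 to 0.62. G5 against G3 in TM gave 0 of 8 called (0.0295% of all genes), with differences from -0.17 (Xpc) to 0.31 (Xpa). An interaction test set the genotype difference in a later generation against the one in G1, and 0 of 8 passed by limma or with voom weights in G3 (2.42% of all genes) or in G5 (19.8%), with 0 and 1 at an unadjusted p under 0.05 by limma. The largest in G5 were 1.06 for Ercc1 (95% interval -0.06 to 2.18, adjusted p = 0.149) and -0.56 for Msh6 (-1.07 to -0.06, adjusted p = 0.0974). The first was called without G5DM replicate 1 (1.34, adjusted p = 0.0445) and the second after quantile normalization (-0.86, adjusted p = 0.0310).

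The rest of both pathways was read from 6 lists of 45 other genes, of which 44 were tested (Pms1 was not). As the mean of the 3 generations, 24 were higher in TM, 6 were lower and 14 did not pass (29.0% of all genes tested were called higher and 25.1% lower). The median was 0.37 beside -0.00432 over all genes. In G1, 0 of 44 were called by limma or with voom weights, and the median was 0.34 beside 0.02. An unadjusted limma p under 0.05 was found in G1 for 16 of the 44, among them Rpa1, Rpa2, Rpa3 and most of the resynthesis genes. The share of all genes at that level is not given here. For the 31 tested genes outside the resynthesis list, the median was 0.25 as the mean and 0.18 in G1. The proliferation genes used as a check (Mki67, Top2a, Ccnb1, Aurkb, Mcm2, Mcm5, Pcna, Tk1), of which Pcna is also in the resynthesis list, summed to 231 to 395 FPKM in TM libraries and 76.7 to 172 FPKM in DM libraries, and 7 of 8 were higher in TM as the mean. The exception was Mki67, which in G5 fell by 1.36 (SE 0.51, adjusted p = 0.0346, limma), with an interaction of -2.66 against G1 (adjusted p = 0.0371); Top2a did not pass in G5 (-0.01, 95% interval -0.67 to 0.64). Their part in the repair results was not tested.

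Among the 4 other tested mismatch repair genes, 2 were higher in TM as the mean and 2 did not pass. Exo1, the exonuclease that removes the mismatched strand, had 2.13 to 4.15 FPKM in TM and 0.876 to 2.06 FPKM in DM. Every TM library was thus above every DM library, as for 3.86% of all genes tested, and Exo1 rose by 0.86 (SE 0.13, adjusted p = 0.000200, limma). Mlh3, a paralogue of Pms2 active in meiosis, gave -0.30 (95% interval -0.58 to -0.03, adjusted p = 0.0595). Mlh3 was called without G3TM replicate 1 (-0.35, adjusted p = 0.0265) or G5DM replicate 1 (-0.38, adjusted p = 0.00586), with a pseudocount of 0.1 (-0.54, adjusted p = 0.0423) and with voom weights (-0.58, adjusted p = 0.0315).

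In damage recognition and its ubiquitin ligase, 2 of 7 genes were higher in TM as the mean, 1 was lower and 4 did not pass. Rbx1, the RING subunit of the ligase, rose by 0.97 (SE 0.14, adjusted p = 0.00011, limma), and Cul4a, the scaffold, fell by 0.26 (SE 0.10, adjusted p = 0.0445). The call of Cul4a was lost under 12 of 21 alternatives, among them leaving out either G1TM, either G3DM or any G5TM library, G1DM replicate 2, G3TM replicate 2 or 3, or G5DM replicate 2 (adjusted p of at most 0.136), and its value was -0.49 after quantile normalization. In the transcription-coupled branch, 3 of 5 were higher and 2 were lower. One of the 3, Ercc8, which encodes the CSA subunit of a repair ubiquitin ligase, gave 0.28 (SE 0.11, adjusted p = 0.0389), or 0.56 with a pseudocount of 0.1 and 0.61 with voom weights, and was called under 7 of 21 alternatives. Of the fits with 1 library left out, its call held only without G3TM replicate 1, G5DM replicate 1 or G5TM replicate 2 (adjusted p of at most 0.104 in the others). Elof1, an elongation factor, rose by 1.27 (SE 0.21), Xab2, an Xpa-binding protein, rose by 0.82 (SE 0.15), and Uvssa fell by 0.55 (SE 0.19, adjusted p = 0.0238), a call lost without G1DM replicate 1 (adjusted p = 0.0642), G1TM replicate 2 (0.0794) or G3DM replicate 2 (0.0564) and with no filter on low values (0.0668). The fall of Uvssa was 1.02 with a pseudocount of 0.1 and 1.15 with voom weights. Of the 10 subunits of TFIIH, the complex that opens the helix, 4 were higher, 2 were lower and 4 did not pass. Its helicase Ercc2 (Xpd) had 4.17 to 20.7 FPKM in TM and 3.06 to 5.83 FPKM in DM and rose by 1.13 (SE 0.17, adjusted p = 0.000166), although in G1 it gave 0.41 (95% interval -0.28 to 1.11).

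Ercc5, the 3′ nuclease, had the largest fall of the 44 genes as the mean of the 3 generations. It had 3.10 and 2.58 FPKM in G1TM, against 7.82 and 7.80 FPKM in G1DM. It had 2.39, 1.25 and 0.887 FPKM in G3TM, against 5.24 and 7.33 FPKM in G3DM. It had 1.89, 1.85 and 1.27 FPKM in G5TM, against 5.54, 9.62 and 8.67 FPKM in G5DM. No TM library reached the lowest of the 7 DM libraries, a separation seen downward in 3.81% and upward in 3.86% of all genes tested. It fell by 1.57 in G3 (SE 0.26, adjusted p = 0.000963, limma) and by 1.72 in G5 (SE 0.23, adjusted p = 0.000102), and gave -1.498 as the mean (SE 0.15, adjusted p = 9.21e-06) and -1.20 in G1 (95% interval -1.82 to -0.59, adjusted p = 0.0616). The mean and the values in G3 and G5 were called under every alternative run, and the value in G1 was called after quantile normalization (-1.31, adjusted p = 0.0318) and without G3TM replicate 1 (adjusted p = 0.0331) or G5DM replicate 1 (0.0299). In the same list, Rpa1, Rpa2 and Rpa3, the subunits of the single-strand binding protein, were all higher in TM: Rpa3 rose by 1.40 (SE 0.15) and Rpa2 by 1.29 (SE 0.16).

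Resynthesis and ligation, which serve replication as well, held the largest rises: 10 of 13 genes were higher in TM as the mean, 0 were lower and 3 did not pass, with a median of 1.16. Pold2, a subunit of DNA polymerase delta, had 25.9 to 178 FPKM in TM and 7.75 to 18.5 FPKM in DM and rose by 2.46 (SE 0.20, adjusted p = 2.09e-06, limma). Lig1, which seals the nick, had 25.9 to 48.9 FPKM in TM and 7.87 to 14.1 FPKM in DM and rose by 1.48 (SE 0.15, adjusted p = 7.89e-06). In G1 alone Pold2 gave 1.14 (95% interval 0.31 to 1.96, adjusted p = 0.190) and Lig1 gave 1.17 (0.57 to 1.77, adjusted p = 0.0616).

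**Figure D4:**
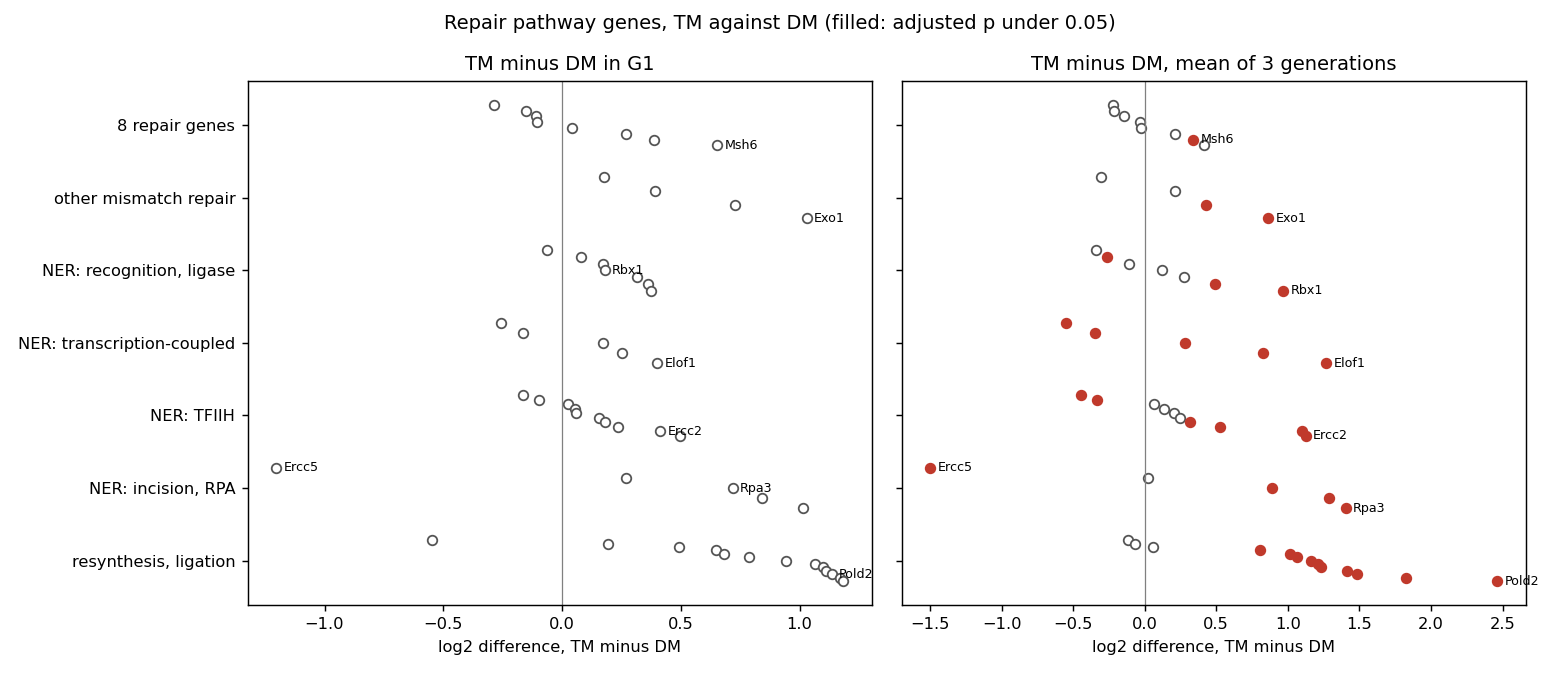
TM minus DM difference in log2(FPKM + 1) of each tested gene of both pathways in G1 (left) and as the mean of the 3 generations (right), one point per gene, filled where the adjusted p was under 0.05. No point is filled in G1, and as the mean Ercc5 lies at -1.498, alone at the left, while the resynthesis genes reach 2.46.

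Genes whose levels followed a member most closely over the 15 libraries are given as a description, since these libraries share the groups and the division between them. For Msh6 the nearest were Wdhd1 (r = 0.940), Ska3 (0.925) and Mcm4 (0.924), with values of 0.950, 0.938 and 0.945 within the 9 libraries and 0.694, 0.800 and 0.644 within the 6. For Pms2 they were Lrrc40 (0.959), Prr11 (0.933) and Cep76 (0.930), and for Msh3 they were Usp7 (0.969), Ptges3 (0.963) and Dhx15 (0.962). For Xpc they were Tsc2 (0.907), Ulk1 (0.899) and Pi4kb (0.862), for Ddb2 Tpmt (0.943), Zfp521 (0.941) and Mfsd4b4 (0.934), and for Xpa Zfp408 (0.948), Glt8d1 (0.915) and Acadm (0.895). For Ercc1 they were Ncs1 (0.948), Eef1akmt4 (0.944) and Tuba1c (0.943), and for Ercc4 Pqlc2 (0.866), Napa (0.851) and Aqp5 (0.841). Among the 8 genes, Msh6 and Pms2 varied together (r = 0.808; 0.884 within the 9 libraries and 0.519 within the 6). Ddb2 and Ercc1 varied in opposite directions (r = -0.871; -0.722 within the 9 and -0.846 within the 6), as did Xpa and Ercc1 (r = -0.750; -0.698 and -0.812).

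Several of these genes share their position with a gene on the other strand, and as the strand setting of the counting is not given in the sources used here, reads of overlapping genes cannot be told apart. Coordinates are as the table lists them; its build is not given in the sources used here, and 7 of the 8 entries equal those of GENCODE vM21 (GRCm38), the exception being Msh6. Msh3 is listed on chromosome 13 at 92211872 to 92355003, minus strand. Xpa (chromosome 4, 46155347 to 46196311) overlaps Ncbp1 by 17057 bases, and Ncbp1 was more abundant, at 19.5 to 50.6 FPKM. Ddb2 (chromosome 2, 91211572 to 91236982) overlaps Acp2 by 2527 bases, at 6.41 to 14.5 FPKM for Acp2, and Ercc1 (chromosome 7, 19344778 to 19356524) overlaps Cd3eap by 511 bases. Msh6 (chromosome 17, 87975050 to 87990883) touches Fbxo11 over 25 bases. Pms2 (chromosome 5, 143909964 to 143933968) and Aimp2 start 117 bases apart, and Xpc (chromosome 6, 91489305 to 91515888) and Lsm3 start 40 bases apart, in both pairs without overlap. Pms2 does overlap Gm17135 on the other strand by 11392 bases. On its own strand it overlaps Gm42421 by 5794 bases and Rsph10b by 934 bases. These neighbours of Pms2 had at most 0.321 FPKM. Ddb2 and the noncoding gene A330069E16Rik (0.114 to 0.808 FPKM) start 164 bases apart, without overlap. Ercc4 (chromosome 16, 13109684 to 13150617) had no such neighbour within 1000 bases.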

How the data were processed

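TRIzol RNA and NEBNext Ultra libraries were used, per the labels' protocols. Tools listed without roles in the submitters' processing notes are HISAT2 2.0.5, DESeq2 1.20.0, featureCounts 1.5.0-p3, CASAVA 1.8 and fastp. The authors deposited one table of FPKM for 54495 genes in 15 libraries. FPKM times listed length was a whole multiple of 1 step per library for 100% of values (tolerance 0.05), which gave read numbers. Genes with FPKM of at least 1 in at least 2 libraries (13562) were fitted with limma 3.58.1 (R 4.3.3): log2(FPKM + 1), 6 group means, empirical Bayes with an intensity trend, two-sided p-values adjusted by Benjamini-Hochberg. The fit was tested on simulated data. Python 3.11.15 with pandas 2.3.3, numpy 2.4.6 and matplotlib 3.10.9 handled tables and plots.

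The genes and lists were chosen with earlier results of these data known. Named genes were the 8 genes, the targeted genes, up to 3 genes per list with the smallest adjusted p in G1 and as the mean, overlapping or facing neighbours, and the 3 best-correlated protein-coding genes; Ercc5 was described further after its values were seen. Alternatives were a pseudocount of 0.1, no filter, quantile normalization, a replicate block, only the groups compared, each library left out, and, chosen after seeing the data, voom on recovered reads and a fit without G3TM and G5TM. The voom fit used the library size implied by the FPKM, so it kept that scaling. Some genes of the lists are not reported here by name.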

Additional observations from a re-analysis of the deposited data

Results flagged for a closer look

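For 5 of the named pathway genes, the TM minus DM difference in G5 differed from that in G1 by limma's interaction test; over all 44 tested genes of the lists 8 were called, 3 higher and 5 lower, beside 19.8% of all genes tested. The 3 others, Gtf2h1, Ccnh and Rfc1, were all lower. All 5 comparisons span the division between the G3TM and G5TM libraries and the other 9. Pold2, a subunit of DNA polymerase delta, had an interaction of 2.36 on the log2(FPKM + 1) scale (SE 0.49, adjusted p = 0.00974, limma), with 3.49 in G5 and 1.14 in G1. Cul4b, a scaffold of the recognition ligase, had -1.77 (SE 0.46, adjusted p = 0.0219), with -1.41 in G5 and 0.36 in G1. Rbx1, the RING subunit of the same ligase, had 1.24 (SE 0.34, adjusted p = 0.0258), with 1.42 in G5 and 0.18 in G1. Gtf2h5, the smallest subunit of TFIIH, had 1.16 (SE 0.31, adjusted p = 0.0259), with 1.06 in G5 and -0.10 in G1. Mlh3, a mismatch repair gene active in meiosis, had -1.03 (SE 0.31, adjusted p = 0.0386), with -0.85 in G5 and 0.18 in G1. Of 21 alternatives each, the call was lost in 1 for Pold2 (without G1TM replicate 1, 2.29, adjusted p = 0.0557), 5 for Cul4b (adjusted p up to 0.106), 9 for Rbx1 (0.113), 9 for Gtf2h5 (0.107) and 13 for Mlh3 (0.144), whose values ran from -1.80 to -0.89 over the alternatives. With 1 library left out, Cul4b lost its call without G1DM replicate 1, either G1TM library or G5DM replicate 2; Rbx1 and Gtf2h5 without any 1 of the 4 G1 libraries, G5DM replicate 2 or 3 or G5TM replicate 1; and Mlh3 without any 1 of those, either G3DM library or G5TM replicate 3. In the same G5 libraries the 4 cartilage markers summed to 105 to 261 FPKM in TM and at most 47.6 FPKM in DM, and the part of these markers was not tested.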

How the results depend on the processing

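The number of the 8 genes called was 0 under every alternative for TM against DM in G1 and in G3, the 3 comparisons of generations in DM, G5 against G3 in TM and the G3 interaction. For TM against DM in G5 it was 0 with no filter and 0 to 1 with 1 library left out, for the mean 1 to 3, for G3 against G1 in TM 0 with no filter, 2 with a pseudocount of 0.1, quantile normalization, only the groups compared or voom, and 0 to 2 with 1 library left out, and for G5 against G1 in TM 2 after quantile normalization and 0 to 2 with 1 library left out. For the G5 interaction it was 1 after quantile normalization and 0 to 1 with 1 library left out. Genes called over the whole table moved more. In TM against DM in G1 they numbered 159, and 408 after quantile normalization, 95 with a replicate block, 37 with only the groups compared, 59 without G3TM and G5TM and 21 to 355 with 1 library left out. For G3 against G1 in DM they numbered 29, and 3 with a pseudocount of 0.1, 118 with no filter, 57 after quantile normalization, 8 with a replicate block, 0 with only the groups compared, 13 with voom, 2 without G3TM and G5TM and 2 to 1533 with 1 library left out. For G5 against G1 in DM they numbered 8, and 75 with no filter, 16 after quantile normalization, 5 with a replicate block, 2 with only the groups compared and 4 to 132 with 1 library left out. For G5 against G3 in DM they numbered 676, and 194 with no filter, 102 with a replicate block, 0 with only the groups compared, 56 without G3TM and G5TM and 14 to 3107 with 1 library left out. The G3 interaction had 328, and 200 with no filter, 159 with a replicate block, 196 with voom and 80 to 1088 with 1 library left out; the G5 interaction had 2683, and 1224 with no filter, 1636 with a replicate block and 429 to 5756 with 1 library left out. With 1 library left out, the counts were 1552 to 5336 for TM against DM in G3, 6070 to 8921 in G5, 5915 to 8669 as the mean, 1775 to 7392 for G3 against G1 in TM, 2900 to 7683 for G5 against G1 in TM and 2 to 15 for G5 against G3 in TM. Differences near 0 changed sign: after quantile normalization Msh3 gave 0.027 in G3 and 0.12 as the mean, Msh6 -0.20, Pms2 0.20, Xpc 0.11 and Xpa 0.0061 in G5, Ercc4 0.032 and Rad23b -0.12 as the mean, and with voom Ercc4 gave -0.00204 in G3. With 1 library left out the TM minus DM ranges that crossed 0 were, for Msh3, -0.26 to 0.043 in G3 and -0.089 to 0.014 as the mean; for Pms2, -0.10 to 0.044 in G5; for Xpc, -0.22 to 0.0059 in G1 and -0.18 to 0.029 in G5; for Ddb2, -0.28 to 0.37 in G1; for Xpa, -0.24 to 0.094 in G5; for Ercc1, -0.61 to 0.41 in G1; for Ercc4, -0.021 to 0.053 in G3, -0.048 to 0.21 in G5 and -0.070 to 0.021 as the mean; and for Cetn2, -0.25 to 0.0012 as the mean. The cause of these changes was not tested. Deviations from group means gave r of -0.541 to 0.378 over 33 pairs of libraries with the same replicate number. Over 60 pairs with different numbers r was -0.488 to 0.541. In groups of 2 libraries the deviations mirror each other, so these values cannot tell whether the numbers pair samples. The edgeR and DESeq2 fits listed at the outset were not run, because the deposited values are FPKM. Depth limits the low genes: Ddb2 rested on 9 to 97 reads per library, Msh3 on 54 to 457 and Xpa on 58 to 250.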
